A study of Homo sapiens with 12 samples.

Results

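The genes described here are the receptors and ligands of the classical axon guidance families: semaphorins with their plexin and neuropilin receptors, ephrins with their Eph receptors, netrins with their UNC5 receptors, and SLITs with their ROBO receptors. They were picked by a rule on gene symbols among the protein-coding genes. The rule uses no measured value, but it was chosen with earlier results of these data known. They number 68 of 58302 genes in the deposited table, 19817 of which are protein-coding. The libraries were made from polyadenylated RNA of U251 and U87, 2 established human glioma cell lines. The 4 groups were U251 with 180 µM artesunate for 24 h, U251 in control medium, U87 with 24.08 µM artesunate for 24 h, and U87 in control medium, with 3 libraries each. All samples were labelled day 9, the extraction text names artemisinin where the treatment label names artesunate, and no solvent in the control medium is named. Because each line had its own dose, line and dose cannot be told apart. The labels do not say that the 3 libraries of a group came from separate cultures, so p-values measure the spread between these samples, which may be technical.

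Axon guidance proteins were found as cues that steer growing nerve fibres. A ligand that is secreted or held on a neighbouring cell binds a receptor on the fibre tip, and the receptor acts through small GTPases on the actin skeleton to attract or repel the fibre. Class 3 semaphorins are secreted and act through a neuropilin paired with a plexin, most other semaphorins are anchored in the membrane and bind plexins directly, and ephrins and Eph receptors signal into both of the cells they connect. Netrins bind UNC5 receptors as repellents, SLITs bind ROBO receptors, and the same families are used in blood vessel growth and are expressed by many gliomas, where EPHA2 and EPHA3 in particular have been studied as surface antigens.

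Library totals were 13631985 to 17314284 counts. Values per library are given as CPM, counts scaled to a common library size after TMM adjustment, and levels that are compared between genes as FPKM, which is also scaled to gene length. Libraries of U87 with artesunate resembled each other least, with pairwise r of 0.972 to 0.981 over genes, against 0.985 to 0.987 in each other group. Of the glioma markers, VIM averaged 3869 and 4608 CPM in U251 with artesunate and control medium and 5865 and 5891 CPM in U87 with artesunate and control medium. SOX2 had 224 to 262 CPM in the U251 libraries and no count in U87, GFAP averaged 57.5 and 67.2 CPM in U251 and 1.67 and 1.01 CPM in U87, and AQP4 had no count in any library. By the test described below, 9 of 12 listed astrocyte and glioma markers were tested between the control groups. GFAP, SOX2, SOX9, NES and CD44 were higher in U251, and SLC1A2, VIM and OLIG2 lower. Of all tested genes 32.5% were higher and 32.3% lower. OLIG2 averaged 0.146 CPM in U251 control medium and 3.16 CPM in U87 control medium, and SLC1A2 0.129 and 0.927 CPM. In bulk RNA, fewer cells that express a gene and less of its RNA per cell cannot be told apart.

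By FPKM the lines differed in which guidance genes stood highest. In U251 control medium SEMA3C, a secreted semaphorin, led with 130.6 ± 1.68 FPKM (SD, n = 3 for this and the following levels). The Eph receptor EPHA2 at 119.6 ± 3.30 FPKM and then the ephrin-B ligand EFNB2 at 104.1 ± 4.69 FPKM followed. EPHA3 at 54.2 ± 2.08 FPKM and NRP2 at 51.8 ± 1.01 FPKM came next and did not differ beyond their spread, followed by SEMA3A at 25.2 ± 0.83 and NRP1 at 20.1 ± 0.78 FPKM. In U87 control medium EFNB2 led with 60.8 ± 1.20 FPKM, followed by SEMA7A, a semaphorin anchored to the membrane by a lipid, at 46.0 ± 6.31 FPKM, and NRP1 at 25.9 ± 1.56 FPKM. SEMA3C at 12.6 ± 1.15 FPKM and NRP2 at 12.3 ± 0.84 FPKM stood close together there, within their spread. With artesunate the 3 highest in U251 were the same genes in another order, EPHA2 at 127.5 ± 10.9, EFNB2 at 114.4 ± 0.79 and SEMA3C at 100.01 ± 5.42 FPKM. In U87 with artesunate NRP1 led with 34.6 ± 2.32 FPKM, and UNC5B at 27.6 ± 8.53 FPKM stood level with EFNB2 at 27.7 ± 0.58 FPKM. At least 1 FPKM was reached by 35 of the 68 genes in U251 with artesunate, 33 in U251 control medium, 23 in U87 with artesunate and 26 in U87 control medium.

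Of the 68 genes, 56 passed the filter on low counts and were tested with edgeR's quasi-likelihood test, with p-values adjusted by Benjamini-Hochberg over all 17150 genes tested. A gene is called at an adjusted p under 0.05, and "rose" and "fell" are used only of called genes. Whether the libraries of the groups overlap is given as a description of the printed values and adds no support to a call. The other 12 had at most 12 counts in any library: SEMA3G, SEMA4A, SEMA5B, EFNA2, EPHA1, EPHA8, EPHA10, EPHB6, NTN3, NTN5, UNC5A and SLIT1.

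The first comparison asked which of these genes artesunate changed in U251. The netrin receptor UNC5B rose from a very low base, the ephrin EFNA3 and the semaphorins SEMA4B and SEMA7A rose up to about 2-fold, and the semaphorins SEMA5A, SEMA3C and SEMA3A and the Eph receptors EPHA4 and EPHA3 fell. These were 4 rises and 5 falls, 16.1% of the 56 tested, against 8.34% called among all tested genes, 4.09% higher and 4.26% lower. The median log2 fold change of the 56 was 0.12, against -1.64e-05 over all tested genes. The count of 9 rested on the set of libraries: it was 5 without any 1 of U251 control libraries 1, 2 and 3 or U251 artesunate libraries 1 and 2, and 16 without U87 artesunate library 2, which enters through the shared estimate of spread. Fitted on the 6 U251 libraries alone it was 15, and with DESeq2 14. The count over all 17150 tested genes moved likewise, from 701 rises and 730 falls. Without any 1 of the libraries that gave 5 it was 346 to 424 rises and 300 to 386 falls. It was 1380 and 1243 without U87 artesunate library 2, 1398 and 1323 on the 6 U251 libraries, and 1083 and 1245 with DESeq2.

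Among the ligands, SEMA4B, a membrane semaphorin, had 35.3, 33.1 and 28.8 CPM in U251 with artesunate and 16.6, 15.6 and 16.9 CPM in U251 control medium. The groups lay well apart, and the log2 fold change was 0.98 ± 0.16 (SE; adjusted p = 0.00338). EFNA3, a ligand of EphA receptors, had 4.88, 4.80 and 6.12 CPM with artesunate and 2.58, 2.80 and 2.57 CPM in control medium, again without overlap. Its log2 fold change was 0.99 ± 0.20 (adjusted p = 0.0123), and the call was lost without U251 control library 3 (adjusted p = 0.0541). SEMA7A had 8.04, 9.28 and 7.41 CPM with artesunate and 4.90, 4.87 and 6.70 CPM in control medium, a log2 fold change of 0.59 ± 0.16 (adjusted p = 0.0437). That call was the least firm of the rises: it was lost without any 1 of U251 control libraries 1 and 2, the 3 U251 artesunate libraries and U87 control library 2 (adjusted p 0.0527 to 0.156), and also with the GC and length offsets described with U87 (0.35, adjusted p = 0.370) and with the 6 U251 libraries alone (adjusted p = 0.0593).

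SEMA5A, a membrane semaphorin that can attract or repel, fell to 2.22, 2.59 and 4.14 CPM in U251 with artesunate, against 6.62, 5.72 and 6.51 CPM in U251 control medium. No artesunate library reached the lowest control, and the log2 fold change was -1.06 ± 0.20 (adjusted p = 0.0078). SEMA3C, the most abundant member in U251 control medium, had 774, 767 and 825 CPM with artesunate and 1004, 996 and 1019 CPM in control medium, a log2 fold change of -0.35 ± 0.08 (adjusted p = 0.0197). SEMA3A, the founding repellent of its class, had 203, 205 and 219 CPM with artesunate and 253, 269 and 266 CPM in control medium, a log2 fold change of -0.33 ± 0.09 (adjusted p = 0.0458). Neither gene's groups overlapped, but both falls were small and close to the threshold. The call of SEMA3C was lost without any 1 of the 3 U251 control libraries and U251 artesunate libraries 1 and 2 (adjusted p 0.0575 to 0.0824). That of SEMA3A was lost without any 1 of the 6 U251 libraries, U87 control library 2 and U87 artesunate library 3 (adjusted p 0.0531 to 0.153), and with the GC and length offsets (-0.16, adjusted p = 0.182).

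Among the receptors, UNC5B (ENSG00000107731, chr10:71212570-71302864, GRCh38), a dependence receptor of netrin 1 and a known p53 target, had 2.58, 2.08 and 2.47 CPM in U251 with artesunate and 0.463, 0.122 and 0.188 CPM in U251 control medium. Every artesunate library lay above every control library, and all 6 were low for this gene. The fitted log2 fold change was 3.19 ± 0.40 (adjusted p = 0.00076). The summed counts were 109 with artesunate and 12 in control medium, a ratio of 9.39 with a 95% exact binomial interval of 5.16 to 18.7 that covers counting error only. On the log2(FPKM + 1) scale, where both levels lie under the pseudocount, the change was 0.37 and not called (adjusted p = 0.177).

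EPHA4, a receptor for both ephrin classes, had 14.0, 11.05 and 11.5 CPM in U251 with artesunate and 24.0, 21.8 and 20.7 CPM in U251 control medium. The groups did not overlap, and the log2 fold change was -0.86 ± 0.13 (adjusted p = 0.0025). EPHA3 had 286, 286 and 281 CPM with artesunate and 386, 406 and 415 CPM in control medium, a log2 fold change of -0.50 ± 0.12 (adjusted p = 0.0338). Its groups also lay apart, but the call was lost without any 1 of the 6 U251 libraries and U87 control library 3 (adjusted p 0.0551 to 0.119) and with the GC and length offsets (-0.38, adjusted p = 0.0698).

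None of the 9 plexins was called in U251 with edgeR; 3 had an unadjusted p under 0.05 and DESeq2 called 2. These 3 were PLXNA1 at 0.48 ± 0.14 (adjusted p = 0.054), PLXNA2 at 0.35 ± 0.10 (adjusted p = 0.0535) and PLXNA3 at 0.40 ± 0.14 (adjusted p = 0.0999) on the log2 scale. Each passed the threshold without U87 artesunate library 2 (adjusted p 0.00463, 0.0339 and 0.00663), PLXNA1 also without U87 artesunate library 1 (0.048), and PLXNA2 also without U251 artesunate library 3 (0.0262) or U87 artesunate library 3 (0.0488). The netrin NTN4 at -0.41 ± 0.12 (adjusted p = 0.0616) and the receptor UNC5C at -0.57 ± 0.19 (adjusted p = 0.0909) were likewise not called. Both passed without U87 artesunate library 2 (adjusted p 0.0374 and 0.0454), UNC5C also without U87 artesunate library 1 (0.0159). NTN4 and UNC5C were also called lower with DESeq2 (adjusted p = 0.0193 and 2.51e-05) and with edgeR on the 6 U251 libraries (0.0487 and 0.00393). On log2(FPKM + 1) limma-trend called both as well (adjusted p = 0.0176 and 0.000676). ROBO4, a ROBO receptor of blood vessels, had 2.58, 1.96 and 2.97 CPM with artesunate and 1.59, 0.852 and 1.25 CPM in control medium, a log2 fold change of 1.02 ± 0.36 that was not called (adjusted p = 0.109). The EphB receptors, class 6 semaphorins, SLITs and neuropilins had no call in U251 with edgeR or DESeq2 and none at an unadjusted p under 0.05. The ephrin-B ligands and netrins had no edgeR call, 1 gene each at an unadjusted p under 0.05 (EFNB2 and NTN4), and 1 DESeq2 call each, and the ROBO receptors had no call with either and ROBO4 at an unadjusted p under 0.05.

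**Figure D1:**
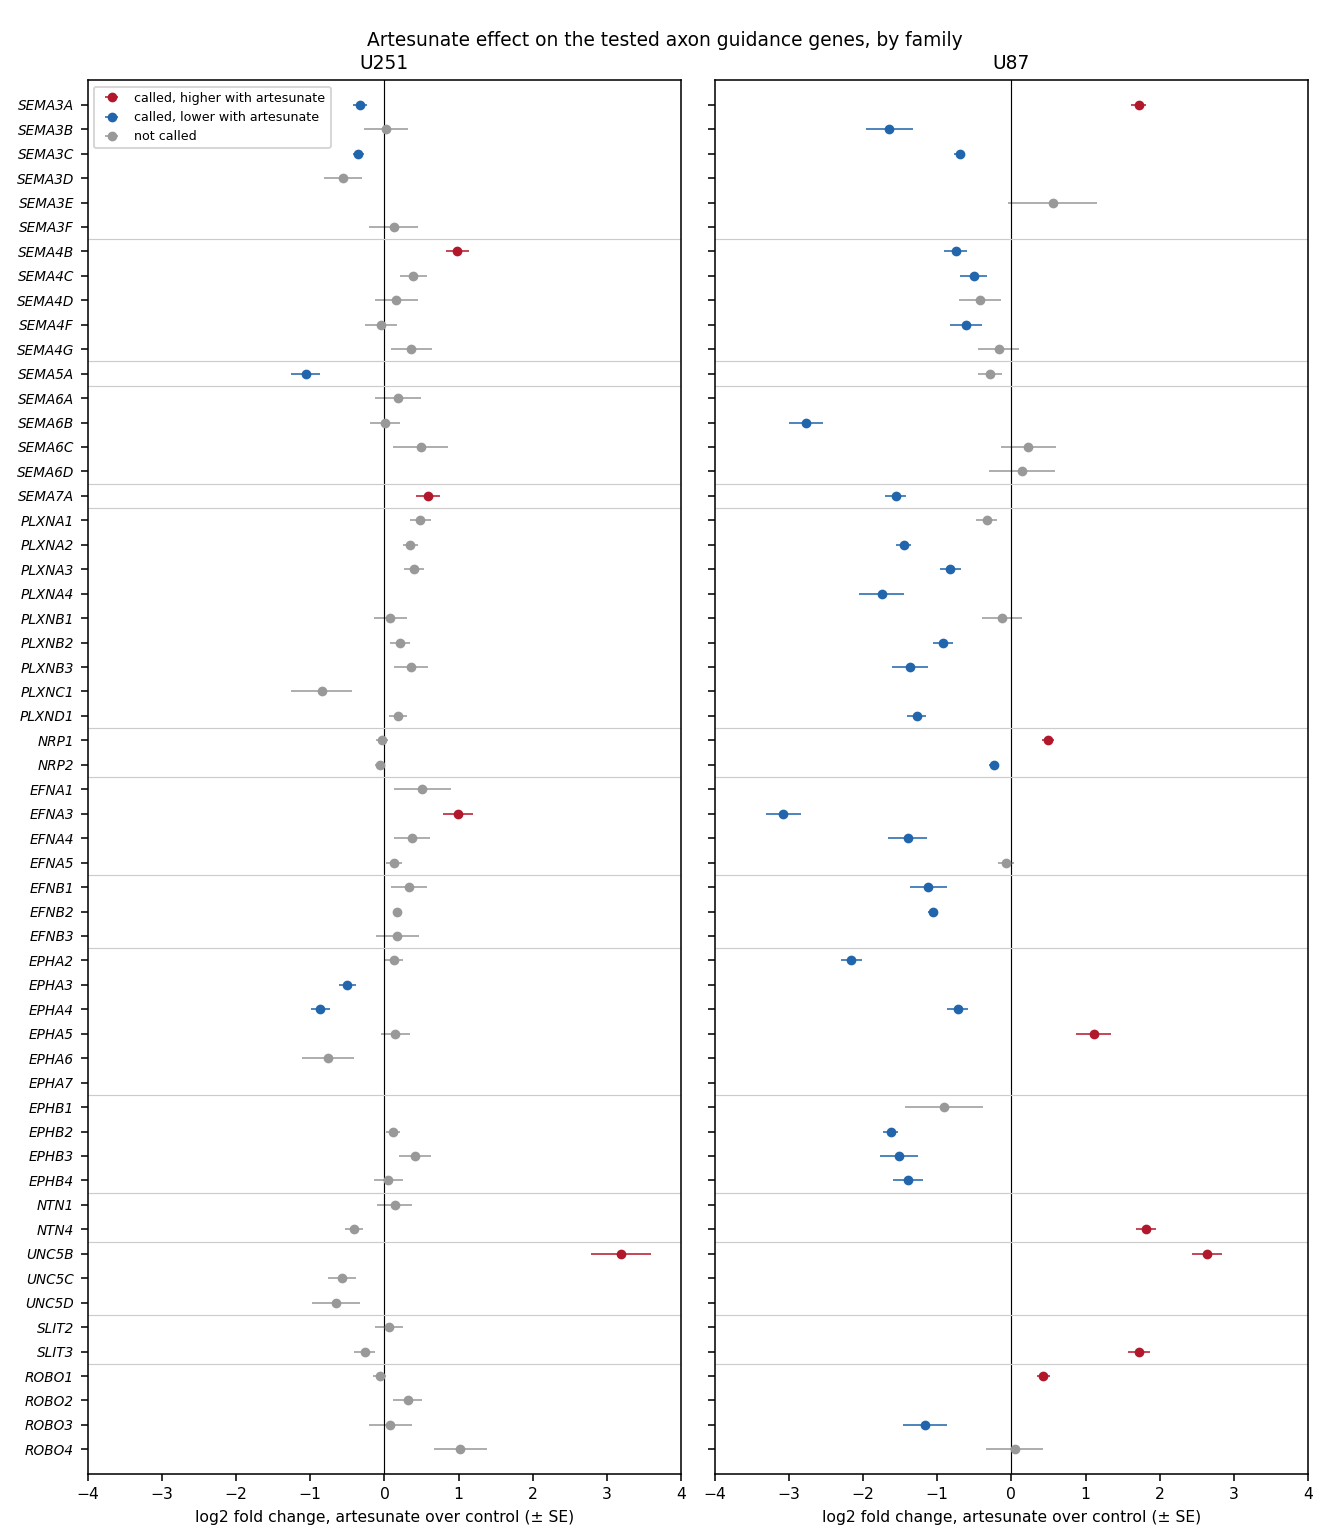
Log2 fold changes, artesunate over control, of the tested axon guidance genes in U251 (left) and U87 (right), with bars for the SE; red points rose, blue points fell and grey points were not called, and families are separated by lines. Genes under 1 CPM in both groups of a line are not drawn, which leaves 51 genes in U251 and 42 in U87. The 24 falls in U87 include 6 of 9 plexins, 2 of 4 ephrin-A ligands, 2 of 3 ephrin-B ligands and 3 of 4 EphB receptors. Of all tested genes 29.2% fell there. With GC and length offsets, 3, 3, 1 and 2 genes of these families were lower and 3 plexins higher. Of all tested genes 21.7% were then lower and 23.9% higher. UNC5B is the furthest to the right in both lines.

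In U87 artesunate was associated with far more calls. Among the ligands EFNA3, SEMA6B, SEMA3B, SEMA7A, EFNA4, EFNB1, EFNB2, SEMA4B, SEMA3C, SEMA4F and SEMA4C fell and NTN4, SLIT3, SEMA3A and SEMA3D rose. Among the receptors EPHA2, PLXNA4, EPHB2, EPHB3, PLXNA2, EPHB4, PLXNB3, PLXND1, ROBO3, PLXNB2, PLXNA3, EPHA4 and NRP2 fell and UNC5B, EPHA5, NRP1 and ROBO1 rose. These 8 rises and 24 falls were 57.1% of the 56 tested, close to the 58.3% called among all tested genes, so the number of calls is no feature of these families. Their direction was uneven: 14.3% rose and 42.9% fell, where 29.2% of all tested genes rose and 29.2% fell. The median log2 fold change was -0.47 over the 56 and 0 over all tested genes, and 6 rises (10.7%) and 16 falls (28.6%) were at least 2-fold, against 11.5% and 17.0% of all tested genes.

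In U87 the artesunate effect followed the GC content of transcripts across the transcriptome. The median log2 fold change of all tested genes was 0.70, 0.42, 0.11, -0.40 and -1.16 over 5 bins of equal size, from low to high GC content. The guidance genes are rich in GC, with a median of 54.0% against 47.9% for all tested genes, and 33 of the 56 lie in the upper 2 bins. The 24 that fell had a median GC content of 60.4% and the 8 that rose one of 45.9%, and across the 56 genes Spearman's rank correlation of GC content with log2 fold change was -0.53 (Pearson's r -0.51), as a description, since these genes share the same libraries. When offsets for GC content and length were put into the fit, 14 of the 56 rose and 16 fell, against 45.7% called among all tested genes, 23.9% higher and 21.7% lower among all tested genes, and the median of the 56 was -0.05. Of the 24 falls, 14 were still called lower, 7 were not called, and SEMA4B, SEMA4C and PLXNB2 were called higher. Of the 8 rises 7 were kept, and only EPHA5 was not called (0.45, adjusted p = 0.190). PLXNA1, PLXNB1, SEMA3F and SEMA6C were called higher and EFNA5 and SEMA5A lower with the offsets only. Whether the GC dependence lies in the cells or in library preparation was not tested. In U251 the same bins had medians of -0.19, -0.10, -0.01, 0.08 and 0.25, the rank correlation over the 56 was 0.52, and the offsets gave 3 rises and 4 falls, against 8.73% called among all tested genes, 4.51% higher and 4.22% lower. The U251 calls kept were those of UNC5B, EFNA3, SEMA4B, SEMA5A, EPHA4 and SEMA3C, with NTN4 newly called (-0.39, adjusted p = 0.0493).

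**Figure D2:**
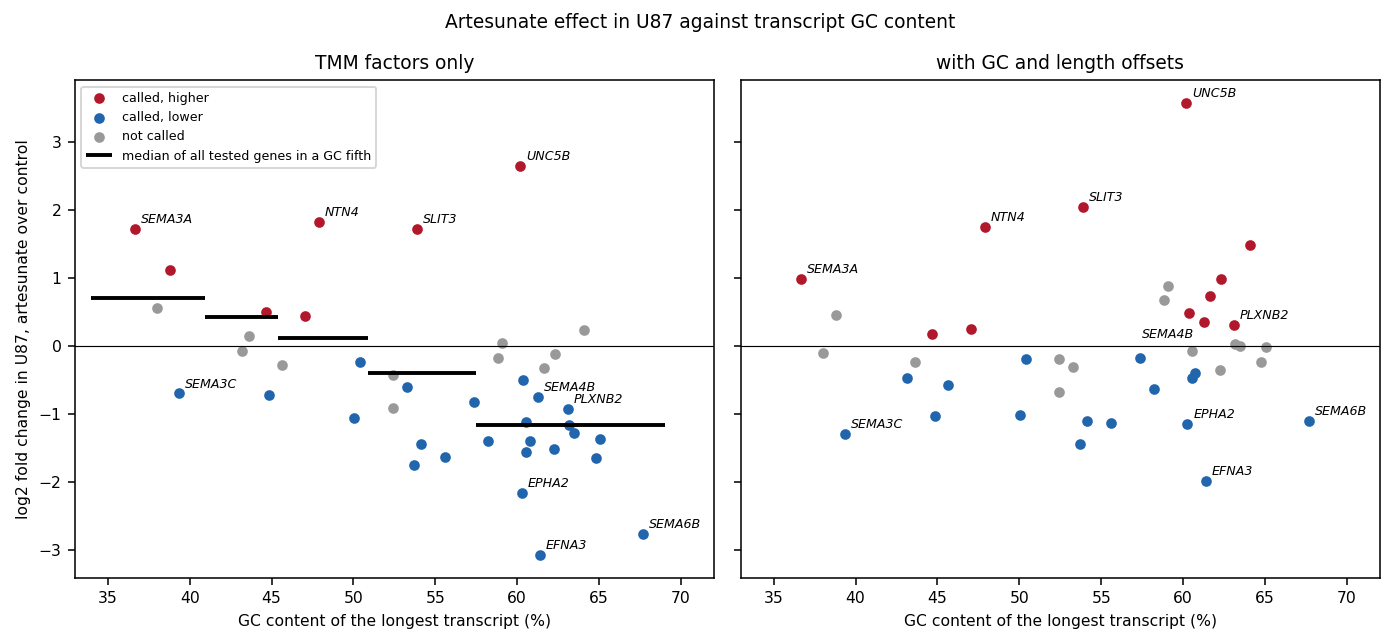
Log2 fold change in U87, artesunate over control, of each drawn axon guidance gene against the GC content of its longest transcript in percent, without (left) and with (right) offsets for GC content and length; red points were called higher, blue lower and grey not called. Black bars on the left are the medians of all tested genes in 5 bins of GC content, from 0.70 down to -1.16, with the outer bins cut short at the range shown. With the offsets SEMA4B and PLXNB2 stand among the genes called higher, while UNC5B, NTN4, SLIT3 and SEMA3A stay higher and EFNA3, SEMA6B and EPHA2 stay lower.

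Among the ligands that fell in U87, EFNA3 had 0.583, 1.02 and 0.577 CPM with artesunate and 5.95, 6.83 and 5.72 CPM in control medium. Each control library exceeded each artesunate library more than 5-fold, and the log2 fold change of -3.08 ± 0.24 (adjusted p = 9.46e-07) was -1.99 with the offsets (adjusted p = 1.28e-05). SEMA6B, a membrane semaphorin, had 1.39, 2.63 and 1.54 CPM with artesunate and 11.5, 12.6 and 13.6 CPM in control medium. Its groups were also far apart, with a log2 fold change of -2.76 ± 0.23 (adjusted p = 1.7e-06), which the offsets took to -1.10 (adjusted p = 0.000142). SEMA7A fell to 122, 106 and 101 CPM with artesunate, against 291, 307 and 370 CPM in control medium, with a log2 fold change of -1.56 ± 0.14 (adjusted p = 2.59e-06), or -0.47 with the offsets (adjusted p = 0.0472).

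EFNB2, the ephrin that marks arteries in development, had 130, 125 and 125 CPM in U87 with artesunate and 270, 264 and 260 CPM in U87 control medium. The libraries of each group lay close together, and its log2 fold change of -1.06 ± 0.06 (adjusted p = 1.52e-07) was nearly the same with the offsets, -1.02 (adjusted p = 5.63e-08). The falls of SEMA4C and SEMA4F were near the threshold. The call of SEMA4C (-0.51 ± 0.18, adjusted p = 0.0304) was lost without any 1 of the 3 U87 control libraries and U87 artesunate libraries 1 and 3 (adjusted p 0.056 to 0.122). That of SEMA4F (-0.61 ± 0.22, adjusted p = 0.0304), whose groups overlapped, was lost without U87 control library 2 or 3 or U87 artesunate library 3 (adjusted p 0.0553 to 0.122). SEMA4D, a semaphorin that binds PLXNB1, was not called (-0.43 ± 0.28, adjusted p = 0.216). It had 25.7, 22.8 and 20.1 CPM with artesunate and 14.8, 40.0 and 37.5 CPM in control medium, and without U87 control library 1, the low one, the change was -0.76 (adjusted p = 0.000676).

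Of the ligands that rose, NTN4, a netrin of basement membranes, had 14.2, 13.3 and 14.3 CPM in U87 with artesunate and 4.32, 3.99 and 3.54 CPM in U87 control medium. The groups were more than 3-fold apart, with a log2 fold change of 1.82 ± 0.13 (adjusted p = 6.99e-07), or 1.75 with the offsets. SLIT3, a secreted ROBO ligand, rose alike, to 19.5, 22.3 and 20.8 CPM with artesunate, against 5.72, 7.98 and 5.28 CPM in control medium (log2 fold change 1.72 ± 0.15, adjusted p = 2.85e-06; 2.04 with the offsets). SEMA3A had 32.4, 27.5 and 30.8 CPM with artesunate and 9.88, 9.73 and 7.95 CPM in control medium, without overlap. Its log2 fold change was 1.72 ± 0.10 (adjusted p = 1.52e-07), and 0.99 with the offsets (adjusted p = 1.43e-06). SEMA3D rested on 17 counts with artesunate and 2 in control medium, a ratio of 9.97 with a counting interval of 2.37 to 89.0, and is not read further.

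Among the receptors in U87, UNC5B had 161, 260 and 168 CPM with artesunate and 27.8, 33.6 and 33.2 CPM in control medium. The lowest artesunate library stood more than 4-fold above the highest control, the log2 fold change was 2.64 ± 0.20 (adjusted p = 9.83e-07), and with the offsets it was 3.57 (adjusted p = 8.92e-09). EPHA2 fell to 5.69, 7.52 and 9.04 CPM with artesunate, against 30.8, 34.3 and 34.4 CPM in control medium, with a log2 fold change of -2.16 ± 0.14 (adjusted p = 3.38e-07), or -1.14 with the offsets (adjusted p = 5.34e-05). PLXNA4, a partner of neuropilins in class 3 semaphorin signalling, had 1.90, 1.46 and 2.18 CPM with artesunate and 5.84, 6.59 and 6.28 CPM in control medium, with a log2 fold change of -1.75 ± 0.31 (adjusted p = 0.000424). None of these groups overlapped.

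EPHB2 had 38.4, 42.4 and 46.3 CPM in U87 with artesunate and 116, 136 and 141 CPM in U87 control medium, and PLXNA2 had 54.0, 53.0 and 46.3 CPM with artesunate and 128, 145 and 145 CPM in control medium. Both lay lower in every artesunate library, with log2 fold changes of -1.63 ± 0.10 for EPHB2 (adjusted p = 1.87e-07) and -1.45 ± 0.10 for PLXNA2 (adjusted p = 5.53e-07). With the offsets they were -1.14 and -1.10. PLXNA1 was not called (-0.33 ± 0.14, adjusted p = 0.0568), but was without U87 control library 1 (0.0479) or U87 artesunate library 2 (0.000634). Of the 9 plexins 6 fell, where 29.2% of all tested genes did. With the offsets 3 were lower (PLXNA2, PLXNA3 and PLXNA4) and 3 higher (PLXNA1, PLXNB1 and PLXNB2), against 21.7% and 23.9% of all tested genes. Of the 4 EphB receptors tested, EPHB2, EPHB3 and EPHB4 fell, against 29.2% of all tested genes. With the offsets EPHB2 and EPHB4 did, against 21.7%.

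The neuropilins, co-receptors for class 3 semaphorins and for VEGF, went opposite ways in U87 by small amounts. NRP1 had 669, 559 and 645 CPM with artesunate and 432, 430 and 471 CPM in control medium (log2 fold change 0.49 ± 0.08, adjusted p = 0.000274), and with the offsets the rise was 0.17. NRP2 had 213, 199 and 203 CPM with artesunate and 234, 263 and 228 CPM in control medium, a log2 fold change of -0.23 ± 0.07 (adjusted p = 0.0115) that was lost without U87 control library 2 (-0.17, adjusted p = 0.0573). ROBO1, the broadly expressed SLIT receptor, had 146, 126 and 139 CPM with artesunate and 100, 96.7 and 107 CPM in control medium (0.43 ± 0.09, adjusted p = 0.00117). All 3 genes had groups that did not overlap. EPHA4 fell here too, to 6.05, 5.63 and 7.18 CPM with artesunate, against 10.7, 10.3 and 10.3 CPM in control medium (-0.72 ± 0.14, adjusted p = 0.000778).

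**Figure D3:**
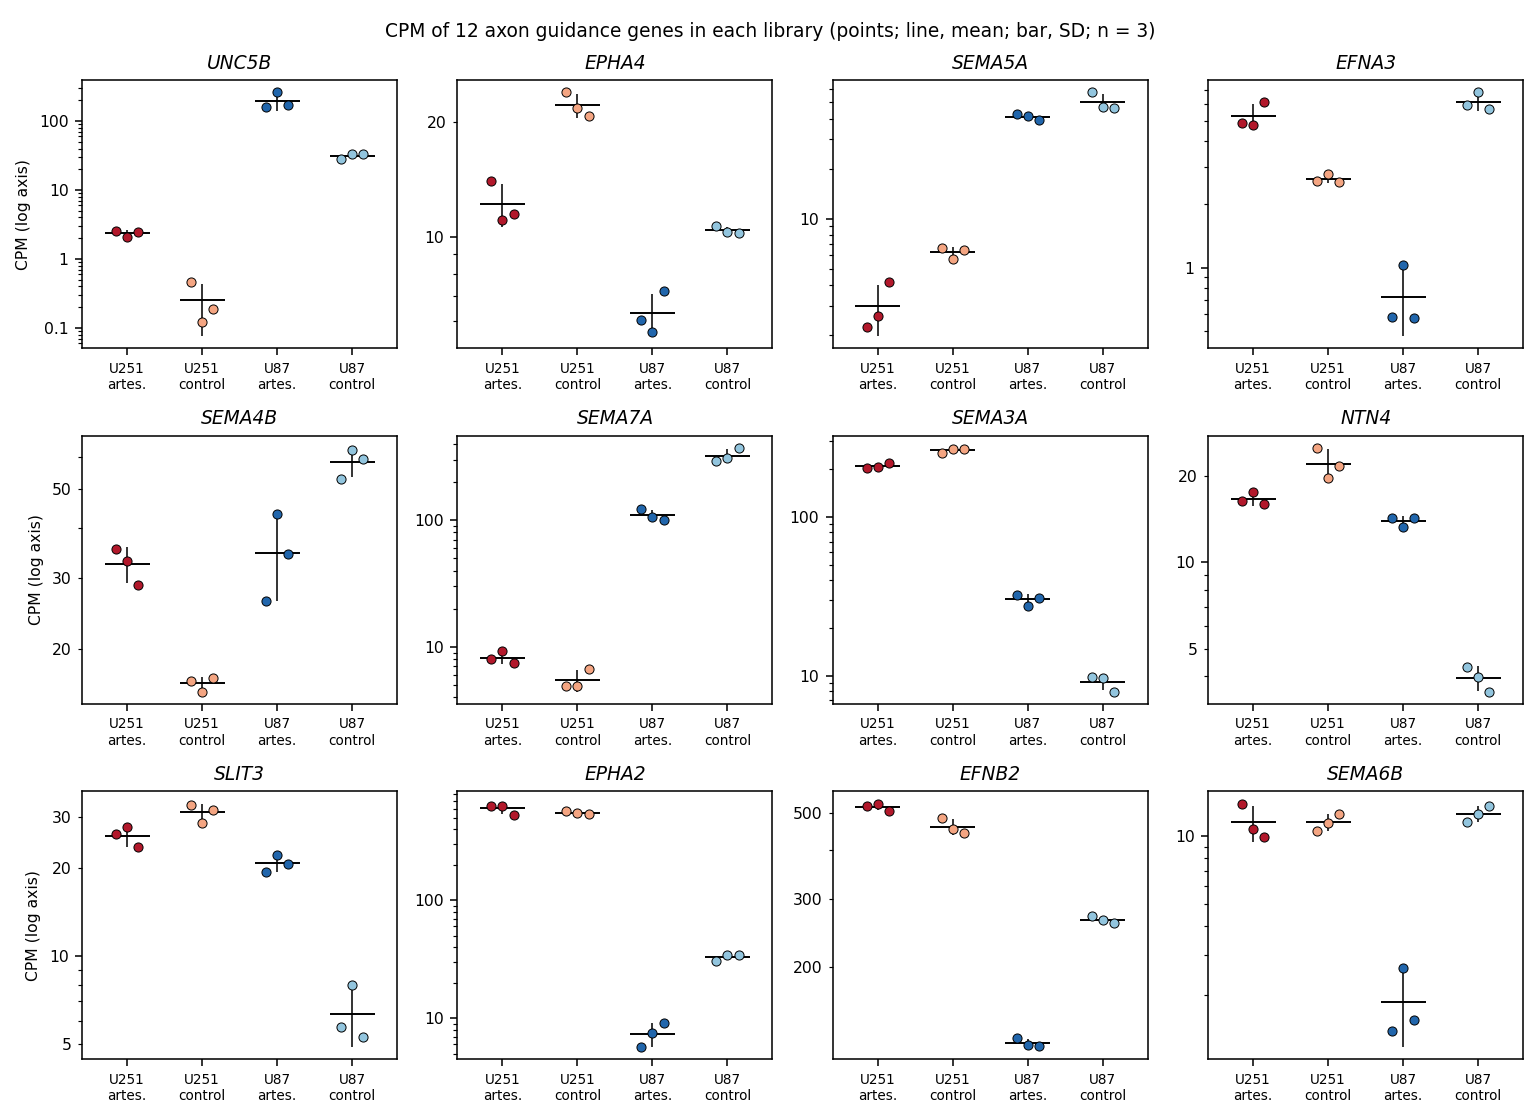
CPM of 12 axon guidance genes in every library on a log axis, with groups from left to right U251 artesunate, U251 control, U87 artesunate and U87 control; points are libraries, horizontal lines the mean and vertical bars the SD of 3 libraries. UNC5B is higher with artesunate in both lines, EFNA3, SEMA4B and SEMA7A are higher in U251 and lower in U87, and SEMA3A is lower in U251 and higher in U87.

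Taking both lines, 7 genes were called with artesunate in each, which is 7 of the 9 calls in U251 and 7 of the 32 in U87. Of all genes called in U251, 70.4% were also called in U87. The genes called in both lines were 12.5% of the 56, against 5.88% of all tested genes, and the 22 called in neither were 39.3%, against 39.2%. UNC5B rose in both, and EPHA4 and SEMA3C fell in both. EFNA3, SEMA4B and SEMA7A rose in U251 and fell in U87, and SEMA3A fell in U251 and rose in U87. With the offsets SEMA4B was higher in both lines (0.73 in U251 and 0.34 in U87), the calls of SEMA7A and SEMA3A in U251 were lost, and EFNA3 kept both calls.

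The difference of the artesunate effect between the lines, U251 minus U87, was tested as an interaction. It was called for 31 of the 56 genes, 55.4%, 21 higher and 10 lower, against 49.4% of all tested genes, 24.1% higher and 25.3% lower. With the offsets 11 were higher and 9 lower, against 30.1% of all tested genes, 14.2% higher and 15.9% lower, and 15 of the 31 kept their call, 14 were not called, and PLXNA1 and PLXNB2 were called in the other direction. The 10 lower ones were SEMA3A, SEMA3D, SEMA5A, PLXNC1, NRP1, EPHA5, NTN4, UNC5C, SLIT3 and ROBO1, and the 21 higher ones comprised 6 plexins, 3 EphB receptors, EPHA2, ROBO3, 4 ephrins and 6 semaphorins. Calls of SEMA3C, SEMA5A, PLXNC1, UNC5C and ROBO3 were lost when single libraries were left out, as given with the processing alternatives. EFNA3 had the largest called difference, 4.07 ± 0.31 (adjusted p = 3.98e-06), and by 2.76 with the offsets. EPHA2 differed by 2.28 ± 0.19 (adjusted p = 5.2e-06): in U251 it had 635, 635 and 534 CPM with artesunate and 568, 548 and 536 CPM in control medium, groups that overlapped, with a log2 fold change of 0.13 ± 0.12 that was not called.

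EFNB2 was likewise not called in U251, where it had 521, 527 and 507 CPM with artesunate and 484, 455 and 443 CPM in control medium (0.17 ± 0.06, adjusted p = 0.113), and its effects differed between the lines by 1.23 ± 0.09 (adjusted p = 2.4e-06). EPHB2 differed by 1.74 ± 0.14 and PLXNA2 by 1.80 ± 0.14 (adjusted p = 4.53e-06 each). On the other side, NTN4 differed by -2.22 ± 0.18 (adjusted p = 4.79e-06), SEMA3A by -2.05 ± 0.13 (adjusted p = 1.71e-06), SLIT3 by -1.98 ± 0.21 (adjusted p = 2.33e-05) and NRP1 by -0.53 ± 0.11 (adjusted p = 0.00237). With the offsets the difference of NRP1 was not called (-0.17, adjusted p = 0.194), while those of EPHA2, EFNB2, EPHB2, PLXNA2, NTN4, SEMA3A and SLIT3 were called in the same direction. For UNC5B the difference was 0.55 ± 0.47 and not called (adjusted p = 0.364), and its sign depended on the processing. It was -0.66 and not called with the offsets (adjusted p = 0.317), but called in the other direction on the log2(FPKM + 1) scale (-1.94, adjusted p = 5.67e-05) and the log2(FPKM + 0.1) scale (-0.83, adjusted p = 0.0342), by limma-trend.

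The promoters of EFNA3, SEMA4B and SEMA7A are shown because these 3 genes were called higher in U251 and had an entry in the RefSeq table. All 3 were called lower in U87 without the offsets. With the offsets only EFNA3 kept both calls. The RefSeq table held no entry for UNC5B or SEMA3A. Each runs 5′ to 3′ on the gene's strand from 250 bases before to 50 bases after the RefSeq start site (GRCh38.p14), and capitals mark the core of the hypoxia response element, ACGTG or GCGTG, on either strand. The windows are EFNA3 at chr1:155078587-155078886 on the plus strand, SEMA4B at chr15:90201080-90201379 on the plus strand and SEMA7A at chr15:74433909-74434208 on the minus strand.
EFNA3: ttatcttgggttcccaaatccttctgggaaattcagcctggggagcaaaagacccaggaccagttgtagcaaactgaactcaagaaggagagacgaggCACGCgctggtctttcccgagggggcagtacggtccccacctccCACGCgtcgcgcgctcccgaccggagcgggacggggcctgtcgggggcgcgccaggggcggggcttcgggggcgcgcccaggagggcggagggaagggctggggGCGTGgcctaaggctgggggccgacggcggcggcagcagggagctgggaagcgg
SEMA4B: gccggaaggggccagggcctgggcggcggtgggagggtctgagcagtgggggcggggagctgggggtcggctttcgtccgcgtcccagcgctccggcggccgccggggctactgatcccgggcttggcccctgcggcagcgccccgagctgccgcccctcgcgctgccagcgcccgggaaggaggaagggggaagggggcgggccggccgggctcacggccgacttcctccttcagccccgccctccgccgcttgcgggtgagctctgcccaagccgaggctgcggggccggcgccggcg
SEMA7A: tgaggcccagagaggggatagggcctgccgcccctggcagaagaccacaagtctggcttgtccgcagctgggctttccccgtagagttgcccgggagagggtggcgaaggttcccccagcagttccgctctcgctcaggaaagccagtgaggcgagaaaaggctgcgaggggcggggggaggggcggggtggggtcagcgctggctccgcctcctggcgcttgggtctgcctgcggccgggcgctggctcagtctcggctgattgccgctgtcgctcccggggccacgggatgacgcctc
The EFNA3 window held GCGTG 3 times, at -152 and -108 on the opposite strand, where it reads CACGC, and at -4 on the gene's strand, counted from the start site. Those of SEMA4B and SEMA7A held neither core. The element TGATGNAAN, read by ATF4 and its partners in the integrated stress response, was in none of the 3. Among 35116 promoters of the same length 48.4% held at least one of the cores, 21.4% ACGTG, 36.5% GCGTG and 3.61% TGATGNAAN. Of the 58 guidance genes with an entry, 51.7% held at least one of the cores, 15.5% ACGTG, 43.1% GCGTG and 1.72% TGATGNAAN. The motifs do not overlap each other in the printed windows, and a match describes letters only.

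Between the lines in control medium, the guidance repertoire differed for most genes. Of the 56 tested, 26 were higher and 19 lower in U251 than in U87, together 80.4%, against 64.8% of all tested genes, 32.5% higher and 32.3% lower. With the offsets 27 were higher and 18 lower, against 66.6% of all tested genes, 33.5% higher and 33.1% lower, and 44 of the 45 calls were kept. Higher in U251 were 12 ligands (SEMA3A, SEMA3C, SEMA3D, SEMA3F, SEMA6A, EFNA1, EFNB2, EFNB3, NTN1, NTN4, SLIT2 and SLIT3) and 14 receptors (EPHA2, EPHA3, EPHA4, EPHA5, EPHA6, EPHB4, PLXNA3, PLXNB1, PLXNC1, PLXND1, NRP2, UNC5C, UNC5D and ROBO2). Lower in U251 were 9 ligands (SEMA3E, SEMA4B, SEMA4D, SEMA4F, SEMA5A, SEMA6D, SEMA7A, EFNA3 and EFNA5) and 10 receptors (EPHA7, EPHB1, EPHB2, PLXNA1, PLXNA2, PLXNA4, PLXNB2, NRP1, UNC5B and ROBO1).

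Several of these genes were close to absent from one line. EPHA3 had 386, 406 and 415 CPM in U251 control medium and 0, 0.121 and 0.0621 CPM in U87 control medium, which is 19132 against 3 counts, a ratio of 6773 (95% counting interval 2317 to 32846). The repellent receptor UNC5D, with 9.20, 4.14 and 8.39 CPM in U251, and ROBO2, with 7.34, 5.36 and 6.95 CPM, had no count in U87 control medium. They were at least 121-fold and at least 110-fold higher in U251, bounds computed against 3 counts over the group. SLIT2 had 83.0, 83.4 and 77.2 CPM in U251 and 0.617, 0.0604 and 0.497 CPM in U87 (3858 and 20 counts, ratio 205, interval 132 to 336). UNC5C had 67.2, 64.0 and 62.9 CPM in U251 and 0.281, 0.483 and 0.186 CPM in U87 (3073 and 16 counts, ratio 204, interval 125 to 357). SEMA3D had 12.04, 12.2 and 12.02 CPM in U251 and 0.112, 0 and 0 CPM in U87, a ratio of 305 (interval 84.1 to 2527). U87 control medium thus held at most 20 counts of each of these 6 genes in its 3 libraries together.

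The reverse held for UNC5B, with 0.463, 0.122 and 0.188 CPM in U251 control medium and 27.8, 33.6 and 33.2 CPM in U87 control medium, and for SEMA7A, with 4.90, 4.87 and 6.70 CPM in U251 and 291, 307 and 370 CPM in U87. The log2 differences were -6.92 ± 0.33 for UNC5B (adjusted p = 4.61e-09) and -5.88 ± 0.17 for SEMA7A (adjusted p = 1.17e-10). PLXNA4 had 0.463, 0.426 and 0.939 CPM in U251 and 5.84, 6.59 and 6.28 CPM in U87 (-3.34 ± 0.35, adjusted p = 4.43e-06). SEMA5A had 6.62, 5.72 and 6.51 CPM in U251 and 57.4, 46.9 and 46.1 CPM in U87 (-2.995 ± 0.19, adjusted p = 5.01e-08), again with no overlap. SEMA6D, at 0.397, 0.365 and 1.25 CPM in U251 and 4.21, 2.78 and 4.16 CPM in U87, and EPHB1, at 0.265, 0.243 and 0.250 CPM in U251 and 1.29, 1.03 and 0.994 CPM in U87, were low in both lines. Their log2 differences were -2.45 ± 0.52 (adjusted p = 0.00141) and -2.10 ± 0.58 (adjusted p = 0.00752). The call of SEMA4F (-0.60 ± 0.22, adjusted p = 0.0287) was lost without U251 control library 3 or U87 control library 2 or 3 (adjusted p 0.0599 to 0.116). After its rise in U251, UNC5B stood at 2.38 ± 0.26 CPM in U251 with artesunate, against 31.5 ± 3.25 CPM in U87 control medium (mean ± SD, n = 3).

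**Figure D4:**
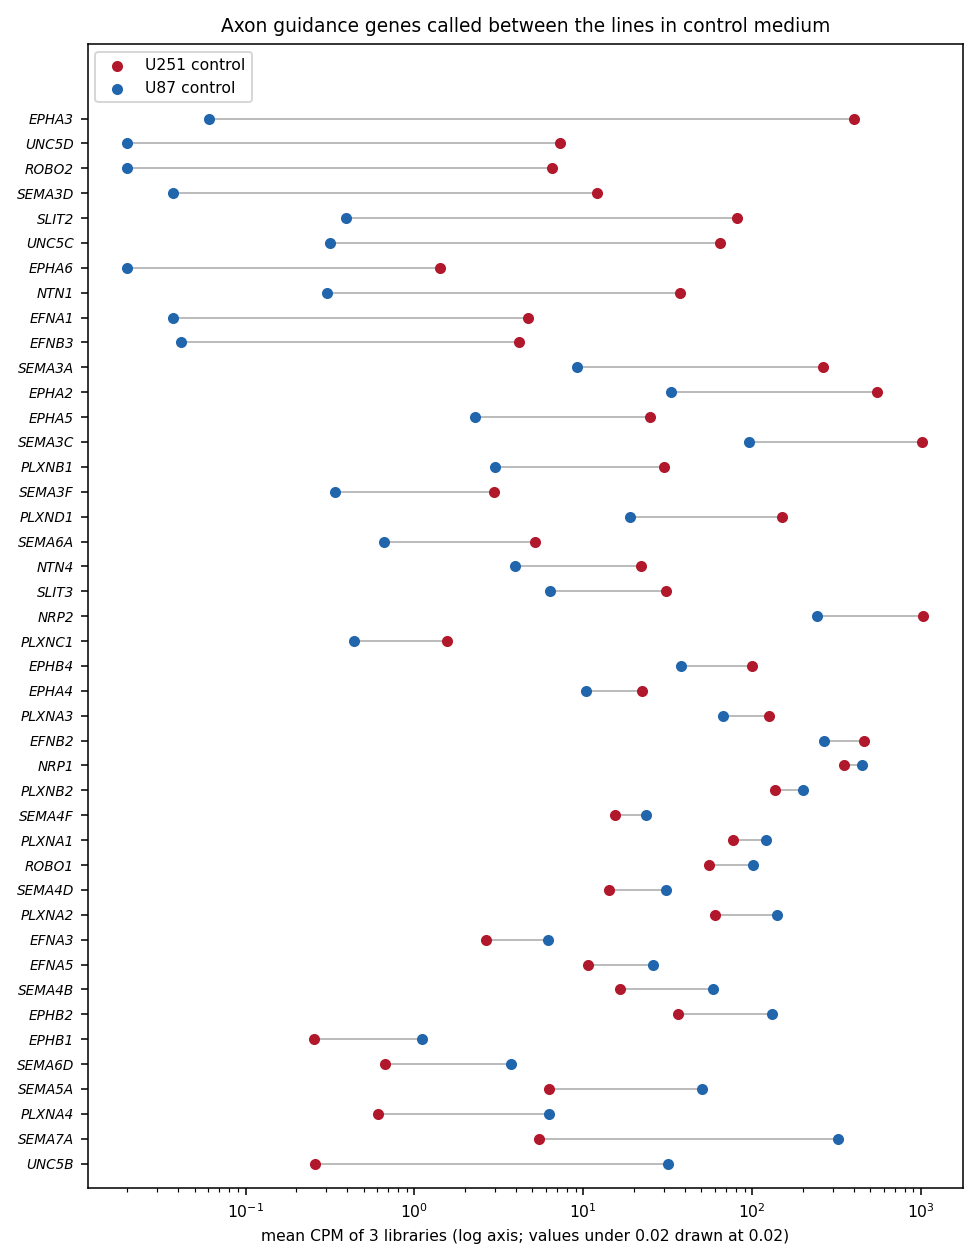
Mean CPM of 3 libraries in U251 control medium (red) and U87 control medium (blue) on a log axis for the 43 axon guidance genes called between the lines that reach 1 CPM in at least one of them, ordered by log2 difference; values under 0.02 CPM are drawn at 0.02. EPHA3, UNC5D, ROBO2 and SEMA3D at the top are near absent from U87, and UNC5B and SEMA7A at the bottom are much lower in U251.

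Other genes of the same pathways were counted from lists of partners and effectors. Their counts stand against 4.09% of all tested genes higher and 4.26% lower in U251, and 29.2% in each direction in U87 (with the offsets 23.9% higher and 21.7% lower), and with so few genes a list nothing particular to them is read from these counts. Among the 7 tested of 9 growth factor partners of neuropilins, VEGFA and PGF rose and KDR fell in U251, while MET rose and VEGFA, VEGFB, VEGFC, PGF, KDR and HGF fell in U87, which with the offsets became 1 rise and 3 falls. VEGFA, the angiogenic ligand that binds neuropilins, averaged 391 ± 33.3 CPM in U251 with artesunate and 56.6 ± 1.62 CPM in U251 control medium (log2 fold change 2.79 ± 0.21). Of the 8 tested of 11 netrin and RGM partners, NTNG1 fell in U251 and NEO1, RGMA, RGMB and FLRT2 rose in U87. FLRT2, a membrane ligand of UNC5 receptors, averaged 240 ± 9.22 CPM in U87 with artesunate and 95.1 ± 6.09 CPM in U87 control medium (1.34 ± 0.10; 0.61 with the offsets). Among the effectors, 2 of 19 tested for semaphorins and plexins, 3 of 18 for SLIT and ROBO and 1 of 14 for Eph and ephrin rose in U251, and 1 of the last fell. In U87 these lists had 5 rises and 7 falls, 6 and 6, and 6 and 2, and with the offsets 6 and 4, 7 and 4, and 8 and 1. ABL1, a kinase downstream of ROBO, averaged 177 ± 13.8 CPM in U251 with artesunate and 104 ± 6.61 CPM in U251 control medium (0.77 ± 0.11). None of 5 tested adhesion molecules was called in U251 with edgeR; 1 had an unadjusted p under 0.05, and DESeq2 called 1. Among the adhesion molecules NRCAM rose in U87, and the offsets gave 2 rises and 1 fall.

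Markers of other cell types moved with artesunate in places. Their calls stand against 8.34% of all tested genes called in U251 and 58.3% in U87, there 29.2% in each direction. With so few genes a list, nothing particular to the lists is read from these counts. Summed over 6 endothelial genes the level was 59.7 to 68.00 CPM in U251 with artesunate and 94.6 to 100.3 CPM in U251 control medium, and 21.2 to 31.3 CPM in U87 with artesunate and 40.7 to 46.3 CPM in U87 control medium. Of this list 1 of 5 tested genes fell in U251 and 3 fell in U87, against 4.26% and 29.2% of all tested genes. KDR made up most of the sum at 60.8 and 95.6 CPM in U251 and 23.0 and 37.9 CPM in U87 with artesunate and control medium, and CDH5 and CLDN5 had no count in U87 with artesunate. The 6 microglial and leukocyte genes summed to 3.95 to 6.67 CPM in U251 with artesunate and 1.06 to 3.16 CPM in U251 control medium, and to 31.1 to 60.5 CPM in U87 with artesunate and 73.5 to 115.5 CPM in U87 control medium. CSF1R and CD68, the tested ones, fell in U87, and AIF1 had no count in any group. In U87 the 6 oligodendrocyte genes summed to 24.5 to 45.0 CPM with artesunate and 83.9 to 127 CPM in control medium, with MOG, MAG and SOX10 at 0. CNP, which many cell types express, carried nearly all of that sum and fell (31.3 and 107 CPM on average with artesunate and control medium), while MBP, the other tested gene, averaged 0.597 and 0.319 CPM and was not called. The 4 epithelial genes summed to 19.8 to 26.7 CPM in U251 with artesunate and 22.9 to 37.2 CPM in U251 control medium, and to 2.41 to 5.33 CPM in U87 with artesunate and 6.005 to 7.07 CPM in U87 control medium, where KRT18 fell (0.259 and 0.859 CPM on average). Sums of the neuronal and astrocytic lists overlapped between artesunate and control medium in both lines, but single genes in them moved. VIM made up most of the astrocytic sum. Of the 9 tested genes of that list SOX9 rose in U251 (193 and 78.2 CPM on average with artesunate and control medium) and OLIG2, at 0 and 0.146 CPM, was called lower. In U87 SLC1A2 and OLIG2 rose, and SLC1A3, SOX9 and NES fell, NES to 11.9 CPM with artesunate against 70.9 CPM in control medium. Of 4 tested neuronal genes SYT1 and MAP2 rose and SNAP25 and TUBB3 fell in U87, and none was called in U251. With the GC and length offsets in U87, 23.9% of all tested genes were higher and 21.7% lower. The endothelial list then had 3 falls, the microglial and oligodendrocyte lists 1 each, and KRT18 was not called (-1.14, adjusted p = 0.105 with edgeR). The neuronal list had 2 rises and 1 fall, and the astrocytic list 3 rises and 4 falls. The part of these markers in the results on UNC5B, EPHA2, EFNB2 and other genes shared with vessels was not tested.

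Some members share sequence on the genome with another gene, and the strand of counting is not given in the sources used here. These are SEMA3F, SEMA4G, SEMA6A, SEMA6D, PLXNA3, PLXNC1, EPHA5, EPHB1, EPHB4, UNC5D and ROBO2, and EPHA1, which was not tested. Reads from the shared stretch cannot be told apart from those of the overlapping gene, such as SLC12A9 for EPHB4, LAGE3 for PLXNA3 and MRPL43 for SEMA4G. Over all libraries the overlapping gene had more counts than SEMA4G, SEMA6D, PLXNC1, EPHA1, EPHA5, EPHB1 and UNC5D. It had fewer than SEMA3F, SEMA6A, PLXNA3, EPHB4 and ROBO2. For EPHA5 the counts were 2752 against 14210 of AC115223.1, and for UNC5D 557 against 4527 of LSM12P1. How many reads come from that stretch was not tested.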

How the data were processed

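Whole-number counts per gene for 12 libraries of polyadenylated RNA were deposited by the authors without normalization, per the file headers, beside FPKM values that the authors made after TMM adjustment. The submitters' processing notes name fastp, HISAT2 2.1.0, StringTie 1.3.3b and edgeR 3.30.3 with GRCh38 and Ensembl release 91 models; the step that made whole counts, and strandedness, are not given in the sources used here. The counts were tested here with edgeR 4.0.16 (R 4.3.3): filterByExpr (minimum count 10, total 15) kept 17150 of 35237 genes with a count, and a quasi-likelihood model with TMM factors and 1 mean per group took in the 12 libraries together (common biological variation coefficient 0.183). P-values were adjusted by Benjamini-Hochberg over all tested genes, and SE is the size of the log2 fold change divided by the root of the F statistic. The script was tested on simulated data. Where a group had at most 20 counts, ratios of summed counts have 95% exact binomial intervals, and bounds use 3 counts over the group; both cover counting error only.

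Length and GC content, taken from each gene's longest transcript, came from GENCODE 29, which held 58039 of the 58302 identifiers and all 68 guidance genes, and entered alternative fits as spline offsets (5 degrees of freedom). Other alternatives were RLE factors, no factors, no filter, a minimum count of 30, DESeq2 1.42.0, limma-trend 3.58.1 on log2(FPKM + 1) or log2(FPKM + 0.1), fits on 6 libraries, the replicate number as a block, and leaving out each library. Library values are printed for the 8 called genes with the largest change per artesunate comparison, the 5 with the smallest p per direction for the difference and the 6 with the largest change per direction between controls, each with at least 1 CPM, for the highest gene of each family, and for further genes near a threshold, which were added after their values were seen. The genes and all lists (7 of pathway partners and 6 of cell type markers) were chosen with earlier results of these data known; 1 of the pathway lists is not reported here.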

Additional observations from a re-analysis of the deposited data

Results flagged for a closer look

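Of the 31 genes called for a difference of the artesunate effect between the lines, 12 were flagged. The others include SEMA6B at 2.77. Values are from the interaction test of edgeR, U251 minus U87 on the log2 scale, adjusted over all tested genes. Among the flagged genes the difference was positive for EFNA3 (4.07), EPHA2 (2.28), SEMA7A (2.14), PLXNA2 (1.80), EPHB2 (1.74), SEMA4B (1.73) and EFNB2 (1.23). Among the flagged genes it was negative for SEMA3D (-3.63), which rested on 2 counts in U87 control medium, NTN4 (-2.22), SEMA3A (-2.05), SLIT3 (-1.98) and NRP1 (-0.53). With the GC and length offsets the difference of NRP1 was not called, and those of EFNA3 and SEMA4B were 2.76 and 0.38. The dose differed between the lines, and its part in these differences cannot be told apart from that of the line.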

How the results depend on the processing

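Of the calls on guidance genes, 2 of 9 in U251 (SEMA4B and EPHA4), 17 of 32 in U87, 11 of 31 for the difference and 43 of 45 between controls held under every alternative run. The count of 9 in U251 was 14 with DESeq2, 15 with only the 6 libraries of the line, 4 with GC and length offsets plus the replicate block, and 5 to 16 when 1 library was left out (16 without U87 artesunate library 2). Over all genes the 701 rises and 730 falls in U251 were 516 and 348 with no filter and 821 and 1333 on log2(FPKM + 1). They were 1083 and 1245 with DESeq2, 1398 and 1323 with the 6 libraries, and 486 and 402 with offsets plus block. Without U87 artesunate library 2 they were 1380 and 1243. The cause was not tested. The count of 31 differences was 20 with the offsets and 16 with offsets plus block. Over all genes 4132 differences were higher and 4346 lower, with the offsets 2433 and 2722, and with offsets plus block 2142 and 2290. Deviations of same-numbered libraries had r of 0.0410, 0.000146 and 0.0378 in U251 and 0.0533, 0.0504 and -0.00857 in U87. Differently numbered ones had r of -0.0563 to 0.0185 in U251 and -0.0845 to 0.0443 in U87. With 3 libraries per group, values this small cannot decide whether the numbers pair the samples. With the replicate block the counts were 8 in U251, 33 in U87, 30 for the difference and 45 between controls. Over all genes, rises and falls with the block were 613 and 556 in U251 and 4803 and 4921 in U87. Without it those in U87 were 5000 and 5005. For the difference 4096 were higher and 4221 lower with the block. Between controls 5502 were higher and 5470 lower, against 5573 and 5542 without the block. With the offsets the sign turned for 14 of the 56 tested genes in U251, none of them called with or without the offsets, 9 in U87, 13 for the difference and 5 between controls, the last 5 not called either way. Among genes called or described above, the values with the offsets alone and with offsets plus block, in that order, were as follows. In U251 EPHA2 was -0.11 and -0.12 and EPHB2 -0.10 and -0.10. In U87 SEMA4B was 0.34 and 0.34, SEMA4C 0.48 and 0.47, PLXNA1 0.73 and 0.73, PLXNB2 0.31 and 0.30, and ROBO3 0.029 and 0.0079. For the difference SEMA3B was -0.057 and -0.063, SEMA4C -0.33 and -0.32, PLXNA1 -0.58 and -0.58, PLXNB2 -0.44 and -0.44, PLXND1 -0.16 and -0.16, EPHA4 0.20 and 0.20, UNC5B -0.66 and -0.65, and ROBO3 -0.25 and -0.22. The difference of UNC5B was also -1.94 on log2(FPKM + 1), with and without filter, and -0.83 on log2(FPKM + 0.1), called each time. By construction the offsets remove the part of each change that follows GC content and length; whether that part is technical was not tested. Leaving out single libraries ended the difference calls of SEMA3C (U251 artesunate 3 or U87 control 1, adjusted p 0.0502 to 0.0511), SEMA5A (U251 control 1 or 3, U251 artesunate 1 or 2, U87 control 2 or 3, 0.0539 to 0.0703), PLXNC1 (U251 control 2, U251 artesunate 1 or 2, U87 control 1 or 2, U87 artesunate 1 or 2, 0.0551 to 0.0710), UNC5C (U87 control 3, U87 artesunate 2 or 3, 0.0511 to 0.0779) and ROBO3 (U251 control 3, U251 artesunate 2, U87 control 1 or 2, U87 artesunate 1 or 3, 0.0506 to 0.0668). A count of 3 corresponds to 0.168 to 0.219 CPM, which limits SEMA3D, EPHA3 and UNC5C in U87 and UNC5B in U251 control medium.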
